A study of Mus musculus with 9 samples.

Results

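Open chromatin of tissue-resident and monocyte-derived peritoneal macrophages was compared through the 2 peak lists deposited for these groups. Every peak of both lists was used, 24348 from Tissue_resident and 33694 from Monocyte_derived, which is 58042 of the 73594 peaks in the 3 lists of the series. A peak counted as shared if it overlapped a peak of the other list by at least 1 bp. Each list merges the 3 samples of its group. Both groups were sorted peritoneal macrophages of Cx3cr1CreERT2-IRES-EYFP/+ Rosa26-stopfl-tdTomato/+ mice, in which a tamoxifen-inducible Cre is expressed from Cx3cr1 and a fluorescent reporter at Rosa26 is switched on where Cre has acted. Monocyte_derived mice were given 2 ml of thioglycollate on day 0 and their cells were taken on day 4. For Tissue_resident the labels name no treatment particular to the group, and strain, sex and age are not given in the labels. All mice of both groups also received intraperitoneal complexes of 5 µg IL-4 with 25 µg of anti-IL-4, on alternate days over the last 4 days before the cells were taken. Cell origin and thioglycollate treatment therefore cannot be told apart.

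The peritoneal cavity of an untreated mouse holds long-lived large macrophages that depend on the transcription factor GATA6 and on retinoic acid. An irritant such as thioglycollate recruits blood monocytes, which enter the cavity and become macrophages there. IL-4 drives alternative activation of macrophages through STAT6, with induction of genes such as Arg1 and Retnla. In ATAC-seq the Tn5 transposase inserts adapters where DNA is not packed in nucleosomes, so that peaks mark promoters, enhancers and other open sites.

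With 1 list per group no value has a spread between replicates and no test between the groups could be made. The ranges after percentages are 95% Wilson intervals, which cover counting error over peaks, genes or windows only. The lists give no read counts or heights, and depth is unknown. A site missing from a list may have been closed or below detection, and sites open in a fraction of the cells cannot be told apart from sites weakly open in all.

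Promoter windows that carry the contrast are shown first, as the 250 bases before the annotated start, 5′ to 3′ on the gene's strand. Capitals mark matches, on either strand, to any of the 14 motifs given with the motif results. Sequences and starts are from RefSeq for GRCm38.p6, the build of the lists. Acadm, which encodes medium-chain acyl-CoA dehydrogenase, and Retnla, which encodes the IL-4 induced secreted protein RELMα, were called in both lists. Plxna2, which encodes a semaphorin receptor, and Arhgef3, which encodes an exchange factor for small GTPases, were called in the resident list only. Dhrs9, a retinol dehydrogenase gene, S100a4, a calcium-binding protein gene of monocytes, and Spp1, the osteopontin gene, were called in the monocyte-derived list only. Retnla and Spp1 were chosen after their values had been seen.
Acadm, called in both, chr3:153944644-153944893, minus strand: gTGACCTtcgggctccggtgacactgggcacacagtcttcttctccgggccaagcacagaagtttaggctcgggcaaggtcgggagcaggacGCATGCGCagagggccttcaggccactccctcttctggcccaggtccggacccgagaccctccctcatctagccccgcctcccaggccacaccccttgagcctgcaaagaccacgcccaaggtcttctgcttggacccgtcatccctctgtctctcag
Retnla, called in both, chr16:48842359-48842608, plus strand: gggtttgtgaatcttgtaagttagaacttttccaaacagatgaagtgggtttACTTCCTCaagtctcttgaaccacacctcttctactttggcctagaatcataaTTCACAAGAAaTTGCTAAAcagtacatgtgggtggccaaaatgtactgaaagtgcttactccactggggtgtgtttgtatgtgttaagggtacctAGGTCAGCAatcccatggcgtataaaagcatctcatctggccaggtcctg
Plxna2, resident only, chr1:194619579-194619828, plus strand: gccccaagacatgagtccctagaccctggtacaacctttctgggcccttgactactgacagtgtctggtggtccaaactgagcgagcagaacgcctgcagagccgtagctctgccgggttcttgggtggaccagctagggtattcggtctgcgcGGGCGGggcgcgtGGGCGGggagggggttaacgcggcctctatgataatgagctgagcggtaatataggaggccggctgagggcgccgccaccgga
Arhgef3, resident only, chr14:27335787-27336036, plus strand: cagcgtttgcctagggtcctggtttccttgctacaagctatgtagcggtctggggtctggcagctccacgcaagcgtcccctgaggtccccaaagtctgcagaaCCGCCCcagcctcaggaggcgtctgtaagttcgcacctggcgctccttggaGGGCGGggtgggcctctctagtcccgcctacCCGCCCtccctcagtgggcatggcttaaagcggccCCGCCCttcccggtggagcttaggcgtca
Dhrs9, monocyte-derived only, chr2:69380212-69380461, plus strand: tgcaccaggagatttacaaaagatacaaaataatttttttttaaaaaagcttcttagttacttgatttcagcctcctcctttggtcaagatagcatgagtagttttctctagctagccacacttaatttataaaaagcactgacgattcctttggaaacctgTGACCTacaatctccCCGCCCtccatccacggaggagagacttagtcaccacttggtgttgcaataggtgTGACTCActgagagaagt
S100a4, monocyte-derived only, chr3:90603520-90603769, plus strand: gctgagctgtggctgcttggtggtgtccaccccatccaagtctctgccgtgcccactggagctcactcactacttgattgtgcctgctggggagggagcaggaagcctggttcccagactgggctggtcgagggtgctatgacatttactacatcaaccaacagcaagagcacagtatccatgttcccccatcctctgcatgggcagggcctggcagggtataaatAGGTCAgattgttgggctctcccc
Spp1, monocyte-derived only, chr5:104434861-104435110, plus strand: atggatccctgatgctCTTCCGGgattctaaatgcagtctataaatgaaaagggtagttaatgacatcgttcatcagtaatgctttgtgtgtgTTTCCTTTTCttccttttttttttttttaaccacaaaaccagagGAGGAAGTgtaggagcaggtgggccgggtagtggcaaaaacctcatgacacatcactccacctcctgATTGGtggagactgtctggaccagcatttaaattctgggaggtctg

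Of the 250 bases at Plxna2, 165 were covered by the resident peak, which had a p-value of 1e-12, the smallest the authors' lists give. The window at Arhgef3, which belongs to a start inside the gene, had 98 bases covered by a resident peak with a deposited p-value of 5.63e-06. Neither had a monocyte-derived call. Both windows match the GC box and none of the other motifs, and they hold 18 and 15 CpG dinucleotides. The 3 windows called in the monocyte-derived list only hold 2 to 3 CpG dinucleotides each. Their peaks covered 123 bases at Dhrs9, 106 at S100a4 and 125 at Spp1, with deposited p-values of 1e-12, 7.44e-09 and 3.02e-06. At Retnla both lists covered the same number of bases, 195, in a window with 1 CpG that matches the PU.1, STAT6, C/EBP, retinoic acid receptor and MAF motifs. Within a class, composition differed between Acadm and Retnla, which hold 12 and 1 CpG dinucleotides, while the private windows shown were alike. The gap in CpG between the private windows shown is not that of their classes. Over all promoter windows the medians were close, 20 CpG dinucleotides in resident-only and 21 in monocyte-derived-only windows. Those medians are for the longer windows used for the motif shares. The windows shown illustrate the calls rather than represent the classes.

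The resident list was mostly contained in the monocyte-derived list, and the reverse did not hold. Of the 24348 resident peaks 19167 (78.7%, 78.2 to 79.2%) overlapped a monocyte-derived peak, while of the 33694 monocyte-derived peaks 16462 (48.9%, 48.3 to 49.4%) overlapped a resident peak. The shares not shared were thus 21.3% of the resident list and 51.1% of the monocyte-derived list. In bases, the lists had 2.93 Mb in common, which is 80.4% of the resident and 46.3% of the monocyte-derived sequence. The lists differ in length and in how they were cut: 22.5% of resident and 3.76% of monocyte-derived peaks have a p-value above 1e-5. With the monocyte-derived list shortened to the 24348 peaks of smallest p-value, 66.1% of resident and 55.3% of monocyte-derived peaks were shared.

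Which peaks were shared followed their width and their deposited p-value in both lists. At the p-value floor of 1e-12, 98.2% of resident peaks (97.7 to 98.6%) and 94.2% of monocyte-derived peaks (93.6 to 94.7%) were shared. In the band from 1e-6 to 1e-5 the shares were 72.2% and 38.0%. Strong peaks of either group were therefore mostly open in both, and the lists parted among weak and narrow peaks. Among peaks 75 bp wide, the narrowest in the files, 62.9% of resident and 18.8% of monocyte-derived peaks were shared, against 99.7% and 97.0% of those over 400 bp. Resident peaks did not follow the p-value throughout, since those above 1e-5 were shared more often (82.1%) than those from 1e-6 to 1e-5. At the floor, 57 resident and 362 monocyte-derived peaks had no counterpart in the other list.

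**Figure D1:**
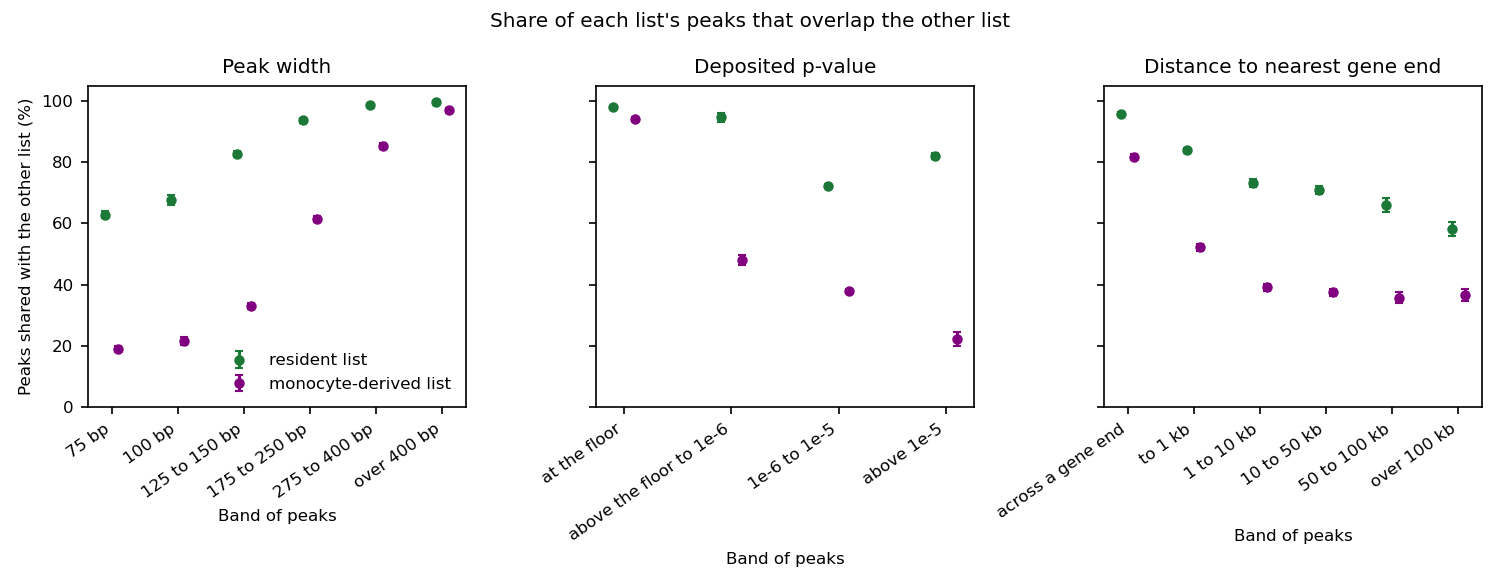
Share of peaks of the resident (green) and monocyte-derived (purple) list that overlap the other list, in percent, by peak width, by deposited p-value and by distance to the nearest end of a protein-coding gene. Points are shares and bars are 95% Wilson intervals over peaks. Both lists reach their highest shares among wide peaks, at the p-value floor and across gene ends.

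Sharing was also highest at gene ends and lowest far from genes. Peaks that lay across an end of a protein-coding gene were shared in 95.9% of resident and 81.7% of monocyte-derived cases. Within 1 to 10 kb of an end the shares were 73.4% and 39.2%. Beyond 100 kb they were 58.2% (55.7 to 60.5%) for resident and 36.6% (34.6 to 38.6%) for monocyte-derived peaks. For resident peaks the share was lower in each more distant band, while for monocyte-derived peaks it stayed between 35.6% and 37.4% beyond 10 kb. The plot of shared peaks by band shows both courses.

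Peaks found in 1 list only lay less often near gene ends than shared peaks. Of resident-only peaks 25.1% (23.9 to 26.3%) lay within 1 kb of a gene end, 40.6% elsewhere inside a gene and 34.3% outside genes. For monocyte-derived-only peaks the shares were 25.9% (25.2 to 26.5%), 41.6% and 32.5%. Of shared peaks, 53.8% in the resident and 53.0% in the monocyte-derived list lay within 1 kb of a gene end. Whether the private peaks of the groups differed in position depended on the setting. At equal list length 31.7% (30.7 to 32.7%) of resident-only and 25.7% (24.9 to 26.5%) of monocyte-derived-only peaks lay near a gene end, and with p at most 1e-10 the shares were 44.4% and 53.0%. With all peaks used, the private peaks of both groups were mostly intronic, exonic or intergenic, which the annotation used here does not separate further within genes. They were also narrow, with median widths of 75 bp (resident only) and 125 bp (monocyte-derived only), against 125 and 225 bp for shared peaks.

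Some private peaks lay beside a peak of the other list. Within 200 bp of a monocyte-derived peak were 17.4% of the resident-only peaks, and within 200 bp of a resident peak were 13.2% of the monocyte-derived-only peaks. The median distance to the other list was 12.7 kb and 10.3 kb. Where the lists met, they often cut the same open stretch differently. Merging overlapping peaks of both lists gave 36394 regions, of which 15681 (43.1%) were called in both lists, 15896 (43.7%) in the monocyte-derived list only and 4817 (13.2%) in the resident list only. Of the regions called in both, 77.4% held 1 peak of each list, while 17.0% held more resident peaks and 3.62% more monocyte-derived peaks.

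The shares differed between chromosomes, and in each list the intervals of the lowest and highest did not meet. Resident peaks were shared least on chromosome 1 (74.9%, 72.8 to 76.8%) and most on chromosome 19 (86.7%, 83.7 to 89.3%). Monocyte-derived peaks were shared least on chromosome 19 (43.5%, 40.3 to 46.7%) and most on chromosome 7 (52.5%, 50.4 to 54.6%). Chromosome 19 was therefore the highest for one list and the lowest for the other. On the X chromosome 83.0% of resident and 48.8% of monocyte-derived peaks were shared.

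To read the lists by gene, the regions called in each list were counted inside each protein-coding gene and up to 10 kb beyond either end. A region of both lists counts once for each. Of 21631 genes 13679 (63.2%) had a region. Among these, 1655 genes (12.1%) had more resident regions, 7579 (55.4%) had more monocyte-derived regions and 4445 (32.5%) had as many of each. With lists of equal length the shares were 26.1%, 37.7% and 36.2%, so the excess was smaller once the monocyte-derived list was cut. Regions of both lists were present at 11021 genes (80.6%), of the resident list only at 664 (4.85%), and of the monocyte-derived list only at 1994 (14.6%). These shares are the background for every gene and gene list below. Where a pair of counts follows a gene's name, resident regions come first.

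**Figure D2:**
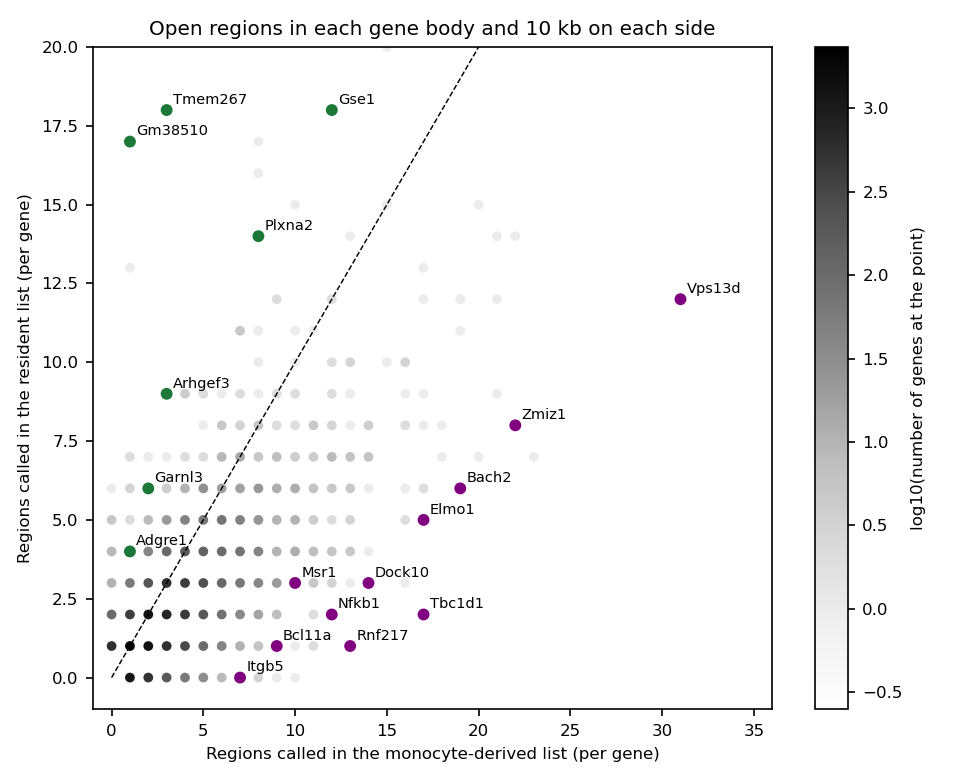
Regions called in the monocyte-derived list (x axis) and in the resident list (y axis) for each gene, counted inside the gene and up to 10 kb beyond either end. Grey points are shaded by the log10 number of genes at that pair of counts, coloured points are named genes, the dashed line marks equal counts, and Sfi1 (141 resident and 106 monocyte-derived regions) lies outside the axes. Most genes lie below the line, with Rnf217, Tbc1d1 and Nfkb1 far below it and Plxna2, Arhgef3 and Garnl3 above it.

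Plxna2, Arhgef3 and Gse1 each had 6 more resident than monocyte-derived regions. Plxna2 had 14 resident and 8 monocyte-derived regions, of which 5 were called in both lists. The 9 resident-only regions began just before the start and ran through the first part of the gene, and included the promoter region chr1:194619664-194619888 printed in part above. The 3 monocyte-derived-only regions lay together at chr1:194687814-194688363. Arhgef3 had 9 resident and 3 monocyte-derived regions, with 4 of the resident-only regions side by side at chr14:27178264-27178863. Gse1, which encodes a chromatin-associated coiled-coil protein, had 18 and 12. With peaks at the p-value floor alone Gse1 turned to 1 region more in the monocyte-derived list.

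Several other places held the most resident-only regions. Some lie in gene families, where reads can be split between similar copies and counts are uncertain. Copy identity was not measured, and how reads that align to several places were handled is not stated in any source used here. The 100 kb with the most was at Sfi1, a centrosomal protein gene, on chromosome 11, where 162 regions included 56 resident-only and 19 monocyte-derived-only ones. Without 100 kb windows of at least 20 regions, a step chosen after the data had been seen, Sfi1 had 2 regions fewer in the resident than in the monocyte-derived list. The Ugt1a cluster of glucuronosyltransferase genes on chromosome 1 held 46 regions, of which 20 were resident-only and 15 monocyte-derived-only. Gm38510 had 17 resident regions and 1 monocyte-derived region, in a stretch of chromosome 1 with the related models Gm7609 and C130026I21Rik. Tmem267, a transmembrane protein gene, had 18 and 3, and 13 resident-only regions lay in the 100 kb from 119600001 on chromosome 13 that also holds the chemokine gene Ccl28. The zinc finger genes Zfp992 and Zfp982 on chromosome 4 had 11 of 11 and 8 of 8 regions in their 100 kb in the resident list only.

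Marco encodes a class A scavenger receptor of macrophages. All 6 regions in its 100 kb of chromosome 1 were resident-only, and 2 of them lay within 10 kb of the gene, at chr1:120467439-120467563 and chr1:120469039-120469113. Their p-values were 1.18e-05 and 8.27e-06, at or above the median of resident-only peaks (8.27e-06). No monocyte-derived region lay within 10 kb of Marco.

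Of the 57 resident-only peaks at the p-value floor, the 10 widest are described, and they were 275 to 625 bp wide. The widest, chr1:85592089-85592713, lay in the overlap of Sp110 and Sp140, interferon-responsive nuclear body genes of a family with many copies, 0.126 kb from a monocyte-derived peak, and a second of the 10 lay beside it. A peak at chr16:97003914-97004263 lay inside Dscam, a cell adhesion gene, 161 kb from any monocyte-derived peak. One at chr8:8452189-8452513 lay 165 kb from Efnb2, which encodes the ligand ephrin B2. At Nova1, which encodes a neuronal RNA-binding protein, the peak chr12:46819389-46819663 lay across the gene end and was 1727 kb from the nearest monocyte-derived peak. Nova1 had 3 resident regions and 0 monocyte-derived ones. The others lay at Clca4b, which had 2 of the 10, and in Kcnn2, Adck1 and Celf4.

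The genes with the largest monocyte-derived excess had few private resident regions or none. Tbc1d1, which encodes a Rab GTPase-activating protein, had 2 resident and 17 monocyte-derived regions, and both resident ones were shared. Rnf217, a ubiquitin ligase gene, had 1 and 13. Nfkb1, which encodes the p105 and p50 subunit of NF-κB, had 2 and 12, with 10 monocyte-derived-only regions in its 100 kb of chromosome 3. Vps13d (12 and 31), Arhgap26 (7 and 23), Zmiz1 (8 and 22) and Bach2 (6 and 19) had the largest differences by number beside Tbc1d1. The gene Dhrs3 lies inside Vps13d, so the count of Vps13d includes that of Dhrs3 (6 and 13). With every region given to the nearest gene, Vps13d had 3 and 7 and Dhrs3 9 and 24. Vps13d encodes a lipid transfer protein, Arhgap26 a GTPase-activating protein, Zmiz1 a transcriptional coregulator and Bach2 a transcriptional repressor of lymphocytes. With the monocyte-derived list at the length of the resident one, Nfkb1 had 2 and 8 and Bach2 6 and 14.

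Clusters of monocyte-derived-only regions lay in several kinds of locus. On chromosome 2, 12 of 14 regions in the 100 kb from 167700001 were monocyte-derived-only, in a stretch without a protein-coding gene that begins 9.57 kb from Cebpb, which encodes the myeloid factor C/EBPβ. The histone gene cluster on chromosome 13 had 12 monocyte-derived-only regions, 4 of both lists and 1 resident-only region in 100 kb. Malat1 and Neat1, abundant nuclear long non-coding RNAs, lie in 100 kb of chromosome 19 with 11 monocyte-derived-only regions among 14. All 11 regions near Ralgds and Cel on chromosome 2, and all 10 at the long non-coding RNA gene Firre on the X chromosome, were monocyte-derived-only. These stretches were ranked on the number of regions and chosen after the lists had been examined.

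Of the 362 monocyte-derived-only peaks at the floor, the 10 widest were 500 to 700 bp wide and lay 0.176 to 41.1 kb from a resident peak. They are the widest of more peaks than the resident 10, so the widths of these sets are not compared. One of 525 bp lay 0.457 kb inside the end of Tnfrsf8, the gene of the TNF receptor family member CD30, at chr4:145267589-145268113, and was 9.35 kb from a resident peak. Tnfrsf8 had 2 and 8 regions. A second, chr6:108709289-108709813, lay 42.4 kb from Bhlhe40, a transcription factor gene, and 0.176 kb from a resident peak. At Bhlhe40 itself all 4 regions were in both lists. Another lay inside Rnf217 at chr10:31557164-31557663. The rest were nearest to Mapre2, E230025N22Rik, Itpripl2, Top1, Pecr, Akap7 and Lsm14a.

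**Figure D3:**
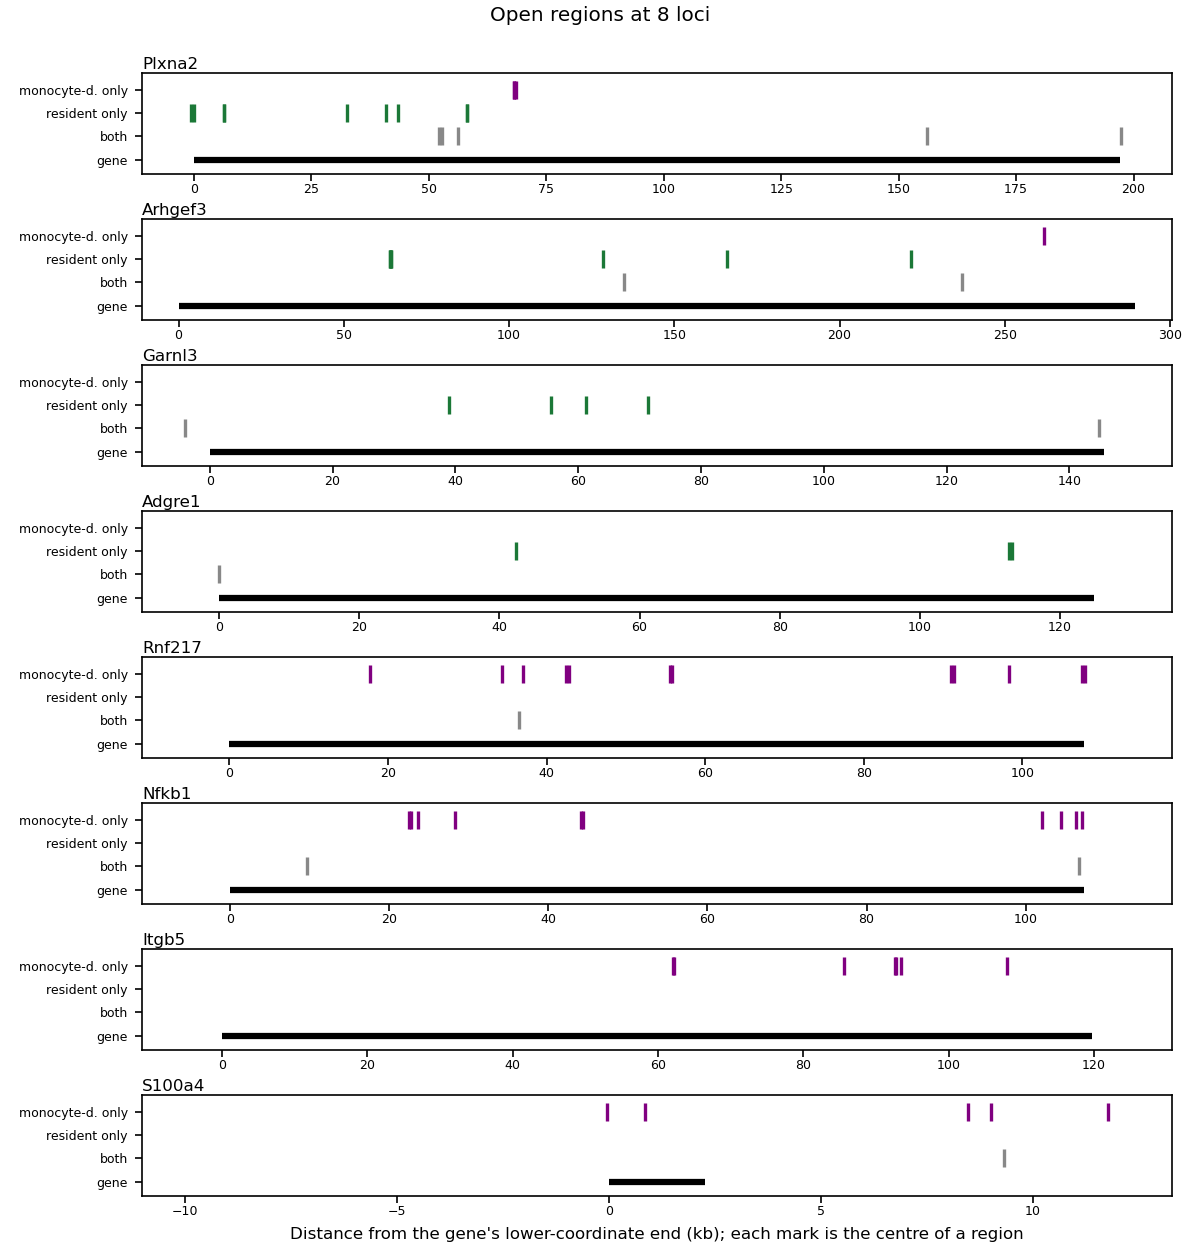
Regions at 8 loci by distance in kb from the lower-coordinate end of the gene (black bar), each mark being the centre of a region called in both lists (grey), the resident list only (green) or the monocyte-derived list only (purple). Plxna2, Arhgef3, Garnl3 and Adgre1 hold 9, 7, 4 and 3 resident-only regions, while Rnf217, Nfkb1, Itgb5 and S100a4 hold 12, 10, 7 and 5 monocyte-derived-only regions and 0 resident-only regions.

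Genes of known roles were read through 27 lists. Large peritoneal macrophage genes had the highest share of members with more resident regions among the lists with over 10 genes that had a region. Among the shorter lists the share was higher for granulocyte and mast cell genes, with 4 of 9. Of the 24 large peritoneal macrophage genes with a region 9 had more resident and 12 more monocyte-derived regions, with 52 and 60 regions in all. The shares over all genes were 12.1% and 55.4%. At equal list length 11 genes had more resident and 7 more monocyte-derived regions. Adgre1, which encodes the macrophage surface protein F4/80, had 4 and 1, with resident-only regions at chr17:57400864-57400988, chr17:57471339-57471438 and chr17:57471764-57471838, deep inside the gene. Garnl3, a Rap GTPase-activating protein gene, had 6 and 2, and all 4 resident-only regions lay between its shared regions. Ltbp1, which encodes a TGFβ-binding matrix protein, had 8 and 7. With p at most 1e-5 Adgre1 had 2 and 1, Garnl3 4 and 2 and Ltbp1 5 and 7.

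The lineage regulator itself was weakly marked. Gata6 had 1 resident and 0 monocyte-derived regions, and the resident call was 75 bp wide with a deposited p-value of 8.27e-06. Icam2, an adhesion molecule gene, had 1 and 0 through a region of 175 bp at chr11:106387814-106387988 inside the gene. Timd4, which encodes a phosphatidylserine receptor, had 1 and 0 through chr11:46804589-46804663 outside the gene. With every region given to the nearest gene, Gata6 had 3 regions fewer in the resident list, and with 50 kb on each side Icam2 had 2 fewer. Members with more monocyte-derived regions included Serpinb2, an inhibitor of plasminogen activators (3 resident and 7 monocyte-derived), and F10, the coagulation factor X gene (3 and 6).

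Monocyte and small peritoneal macrophage genes leaned the other way. Of 20 with a region 14 had more monocyte-derived and 1 more resident regions, with 21 resident and 54 monocyte-derived regions in all. The numbers at equal list length were 11 and 2. S100a4 and its neighbour S100a6 each had 1 resident and 6 monocyte-derived regions, counted over overlapping windows. Itgax, which encodes CD11c, had 0 and 2, and Lyz2, a lysozyme gene of myeloid cells, 1 and 4. Cx3cr1, which carries the Cre in these mice, had 0 and 2, at chr9:120049464-120049663 and chr9:120058714-120058963 inside the gene. Ccr2 and Ly6c2, which mark inflammatory monocytes, had no region in either list. Retnla was the 1 member with more resident regions, at 2 and 1.

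Macrophage core genes had regions in both groups, which carry the label of macrophages, with 18 of 21 carrying more monocyte-derived regions and 2 more resident ones (14 and 4 at equal list length). Spi1, which encodes PU.1, had 1 resident and 3 monocyte-derived regions, and Csf1r, the receptor of the macrophage growth factor, had 2 and 2. Tyrobp, an adaptor of activating receptors, had 2 and 6, Zeb2, a transcriptional repressor gene, 2 and 6, and Runx1, a haematopoietic transcription factor gene, 3 and 8. Cebpa, a myeloid transcription factor gene, was among the exceptions, at 2 and 1. With 50 kb on each side Cebpa turned to 4 regions fewer in the resident list.

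**Figure D4:**
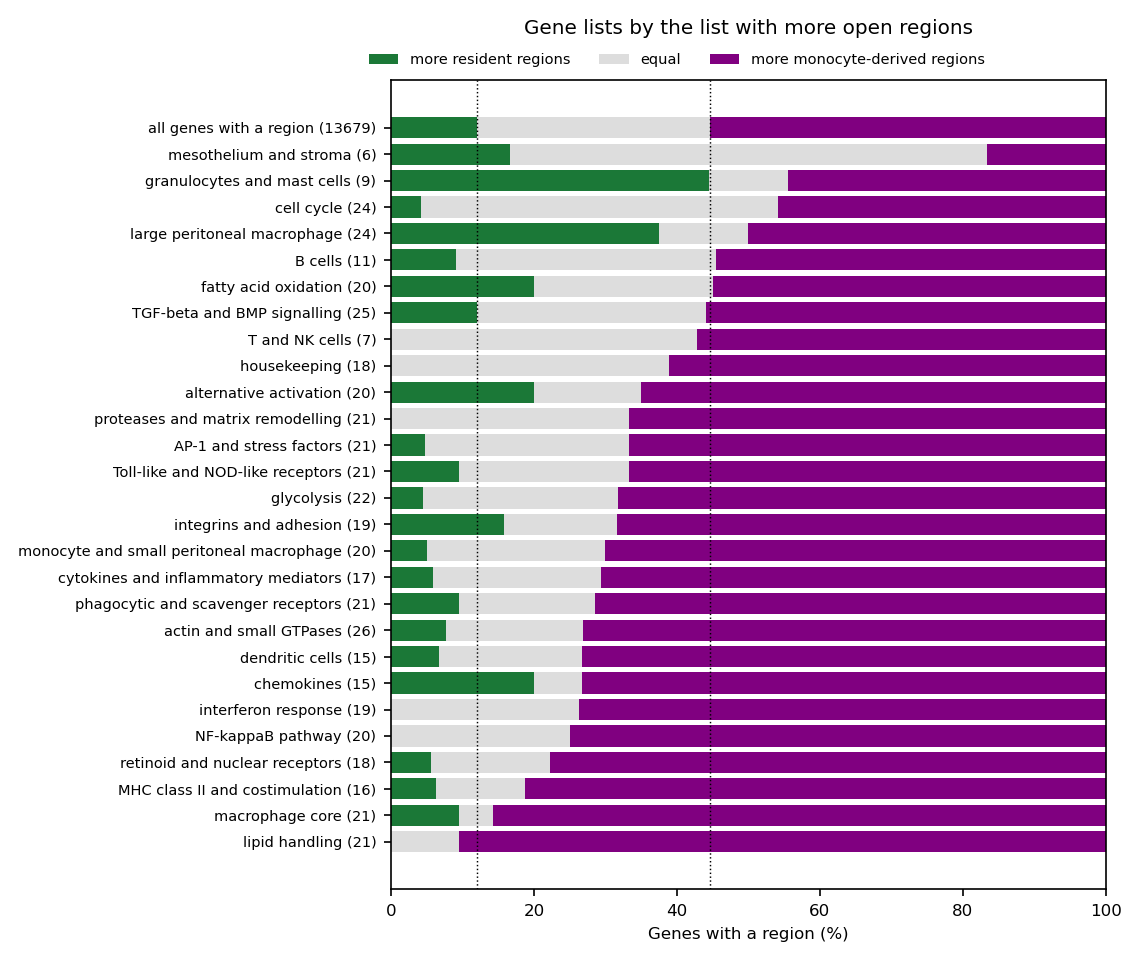
For each gene list (number of genes with a region in parentheses), the percentage of genes with more resident regions (green), equal counts (grey) and more monocyte-derived regions (purple). The top bar and dotted lines give all 13679 genes with a region (12.1% more resident and 55.4% more monocyte-derived). Large peritoneal macrophage genes reach 37.5% more resident, granulocyte and mast cell genes 44.4% (of 9), and lipid handling genes 90.5% more monocyte-derived.

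Alternative activation genes, which IL-4 is known to induce in macrophages, had 4 members with more resident and 13 with more monocyte-derived regions of 20. Arg1, which encodes arginase, had 3 resident and 8 monocyte-derived regions. That excess depended on the window, since Arg1 had 1 and 1 in the gene body alone. With every region given to the nearest gene, Arg1 had 4 and 4. Its 3 shared regions included chr10:24930164-24930563, and its 5 monocyte-derived-only regions all lay on the other side of the gene, from chr10:24911264 to 24914563. Stat6, which transmits the IL-4 signal, had 6 resident and 4 monocyte-derived regions, and its 4 shared regions included the promoter. Myc had 1 and 6, Cish, an inhibitor of cytokine signalling, 2 and 5, and Ucp1, which encodes an uncoupling protein, 2 and 0. Mrc1, the mannose receptor gene, had 2 and 3, and Chil3 1 and 1 without a region in common. With p at most 1e-5 Retnla turned to 1 region fewer in the resident list. At equal list length 7 members had more resident and 7 more monocyte-derived regions.

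Retinoid and nuclear receptor genes had 14 of 18 members with more monocyte-derived regions and 1 with more resident ones. Lists of equal length gave 8 and 5 of 17. The retinoic acid receptor genes Rara (3 resident and 5 monocyte-derived) and Rarb (5 and 7) were open in both. Dhrs3, which reduces retinaldehyde, had 6 and 13, and Dhrs9, which oxidises retinol, had 1 and 5 with the promoter call shown above. The window of Dhrs3 lies inside Vps13d, so the regions of Dhrs3 are also part of the Vps13d count above. Cyp26b1, which degrades retinoic acid, was the exception at 2 and 1. Pparg, a lipid-sensing nuclear receptor gene, had 0 and 2. Aldh1a1 and Aldh1a2, which make retinoic acid, had no region in either list.

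Among signalling genes of inflammation, the NF-κB and interferon lists had no member on the resident side with all peaks. In the NF-κB pathway 15 of 20 genes had more monocyte-derived regions and 0 more resident ones, beside the 12.1% of all genes, and at equal list length 11 and 0. Besides Nfkb1 these were led by Traf3, a signalling adaptor (1 resident and 6 monocyte-derived), Rel, which encodes c-Rel (1 and 5), and Nfkbiz, which encodes a nuclear inhibitor of κB (2 and 5). Of 19 interferon response genes 14 had more monocyte-derived regions and 0 more resident ones, with Irf2, a repressor of interferon signalling, at 5 and 10 and Usp18, a deubiquitinase-like inhibitor, at 2 and 5. For interferon response genes, lists of equal length gave 10 with more monocyte-derived and 4 with more resident regions. Of 21 Toll-like and NOD-like receptor genes 14 had more monocyte-derived and 2 more resident regions (11 and 4 at equal list length). The 9.52% of these receptor genes on the resident side was near the 12.1% of all genes. At equal list length 26.1% of all genes had more resident and 37.7% more monocyte-derived regions. Toll-like and NOD-like receptor genes with more monocyte-derived regions included Tlr4, the receptor for lipopolysaccharide (3 and 7), and Nod2, a sensor of peptidoglycan (4 and 8). The kinase genes Irak2 (2 and 7) and Irak3 (3 and 8) were also among them. Tlr3, which senses double-stranded RNA, had 2 and 1, and Nlrc4, an inflammasome gene, 1 and 0.

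Genes of secreted products leaned to the monocyte-derived list with all peaks, while the numbers of genes on each side were close at equal list length. Chemokine genes had 11 of 15 with more monocyte-derived and 3 with more resident regions, against 5 and 5 of 10 at equal list length. Cxcl2, a neutrophil attractant, had 0 and 6, while its relative Cxcl3 had 2 and 0. Pf4, the platelet factor 4 gene next to Cxcl3, had 2 and 1. With p at most 1e-5 Cxcl2 had 0 and 5, Cxcl3 0 and 0 and Pf4 0 and 1. With 50 kb on each side Cxcl3 had 2 and 2. These genes lie in 1 cluster on chromosome 5 and their windows partly overlap. Of 17 cytokine genes 12 had more monocyte-derived regions and 1 more resident ones, against 7 and 6 of 16 at equal list length. Il10, which encodes an anti-inflammatory cytokine, had 0 and 5, from chr1:131021064 to 131026088, and Il18, an inflammasome-processed cytokine gene, had 0 and 4. Csf1, the macrophage growth factor gene, was the 1 member on the resident side, at 1 and 0, and turned with 50 kb on each side. Il6 and Nos2 had no region in either list.

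AP-1 and stress factor genes had 14 of 21 with more monocyte-derived regions and 1 with more resident ones (10 and 3 at equal list length). Bach1, which represses haem oxygenase, had 4 resident and 10 monocyte-derived regions, Nfe2l2, the gene of its competitor NRF2, 3 and 8, and Egr2, an IL-4 responsive factor, 2 and 6. Fos had 4 and 5, Junb 5 and 5, and Jun 4 and 3. In MHC class II and costimulation, 13 of 16 genes had more monocyte-derived regions and 1 more resident ones (8 and 2 at equal list length). H2-DMa, which loads peptide, had 3 and 9, and Cd86, a ligand of CD28, 4 and 10, while Ciita, the master regulator of the class, had 2 and 1.

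Lipid handling had the largest share on the monocyte-derived side, 19 of 21 genes, and 0 on the resident side. Its genes held 32 resident and 84 monocyte-derived regions, and at equal list length 16 genes still had more monocyte-derived regions and 1 more resident ones. Apoc1 (0 and 1), Apoc2 (0 and 4) and Apoc4 (0 and 3) lie together on chromosome 7. Their windows overlap, so that a region can count for more than 1 of them. Npc1, the lysosomal cholesterol transporter gene, had 1 and 5, Soat1, which esterifies cholesterol, 5 and 10, and Pltp, a phospholipid transfer protein gene, 1 and 4. Soat1 turned to 2 regions more in the resident list at equal list length. In glycolysis 15 of 22 genes had more monocyte-derived regions and 1 more resident ones, with Pfkp at 3 and 10 and Pfkfb4 at 3 and 8, which both act on phosphofructokinase steps. Among glycolysis genes the numbers at equal list length were 13 and 3. Of 20 fatty acid oxidation genes 11 had more monocyte-derived and 4 more resident regions, against 7 and 6 of 18 at equal list length. Acaa2, the mitochondrial thiolase gene, had 4 resident and 2 monocyte-derived regions, Acadm 6 and 5, Hadh 3 and 2 and Etfa 3 and 2, while Slc25a20, the carnitine carrier gene, had 0 and 3.

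Most genes of uptake, adhesion and movement had more monocyte-derived regions with all peaks, as did 55.4% of all genes. The shares were 71.4% for phagocytic and scavenger receptor, 68.4% for integrin and adhesion and 73.1% for actin and small GTPase genes. On the resident side they were 9.52%, 15.8% and 7.69%, beside 12.1% of all genes. With lists of equal length, 12 of 19, 9 of 19 and 12 of 25 genes in the same order had more monocyte-derived regions. In that setting 4, 6 and 7 had more resident ones, beside 37.7% and 26.1% of all genes. With all peaks, phagocytic and scavenger receptors had 15 of 21 with more monocyte-derived and 2, Marco and Timd4, with more resident regions. Itgb5, the integrin β5 gene that pairs with αv in uptake of dying cells, had 0 and 7, all inside the gene from chr16:33891639 to 33937788. Msr1, another class A scavenger receptor gene, had 3 and 10, the opposite of Marco. Fcgr2b, the inhibitory Fc receptor gene, had 0 and 5 and Cd163, a haemoglobin receptor gene, 0 and 4. Of 19 integrin and adhesion genes 13 had more monocyte-derived and 3 more resident regions, with Itgb2, which encodes the common β2 chain, at 3 resident and 8 monocyte-derived regions and Pecam1, which encodes CD31, at 2 and 1. Of 26 genes of actin and its small GTPases 19 had more monocyte-derived and 2 more resident regions. Elmo1 had 5 and 17 and Dock10 3 and 14, both partners in activation of small GTPases, while Arhgef3 and Dock2 (5 and 4) were the members on the resident side.

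In TGFβ and BMP signalling, which shapes resident macrophages in several tissues, 14 of 25 genes had more monocyte-derived and 3 more resident regions, or 56.0% and 12.0%, near the shares of all genes. The balance turned at equal list length, with 8 genes having more monocyte-derived and 10 more resident regions. The ligand genes differed: Tgfb1 had 4 resident and 10 monocyte-derived regions, while Tgfb2 had 2 and 0, at chr1:186658264-186658338 and chr1:186705539-186705613 inside the gene. The receptor gene Tgfbr2 had 4 and 10, and Id1, a target of BMP signals, 2 and 1. Of 21 protease and matrix genes 14 had more monocyte-derived regions and 0 more resident ones, against 11 and 3 of 20 at equal list length. Spp1 had 0 and 5, of which 3 lay from chr5:104425939 to 104427088 and 1 across the promoter shown above. Mmp12, the macrophage elastase gene, had 0 and 2.

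Genes that most cells use were counted in the same way. Housekeeping genes had 11 of 18 with more monocyte-derived regions and 0 with more resident ones, with 38 resident and 53 monocyte-derived regions in all and Actb at 3 and 5. With lists of equal length, 6 housekeeping genes had more monocyte-derived and 1 more resident regions. Of 24 cell cycle genes 11 had more monocyte-derived regions, 1 more resident ones and 12 equal counts, while at equal list length the numbers turned to 6 with more monocyte-derived and 7 with more resident regions of 23. Cdk6 had 4 and 10, and Cdkn2a, which encodes cell cycle inhibitors, 3 and 1. A list with 0 genes on the resident side was therefore also seen for genes not tied to macrophage function.

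Lists of markers of other cells that a peritoneal sort could hold ranged from 6 of 18 to 15 of 16 genes with a region, beside 63.2% of all genes. Of 16 B cell genes 11 had a region, with 21 resident and 40 monocyte-derived regions in all, of which Bach2 gave 6 and 19. Fcrla had 1 and 4, Cd79a 1 and 2, Cd79b 0 and 1 and Ebf1 1 and 0. Ms4a1 and Pax5 were at 0 in both. Of 18 T and NK cell genes 7 had a region, with 4 and 9 regions in all. These were Cd3g (0 and 2), Cd3d, Eomes and Klrb1c (0 and 1 each), Lck and Gata3 (1 and 1 each) and Il7r (2 and 2). Cd3e, Cd4 and Cd8a were at 0 in both. Of 16 dendritic cell genes 15 had a region, with 27 and 58, among them Bcl11a (1 and 9), Zbtb46 (4 and 7) and Flt3 (0 and 2). Of 22 granulocyte and mast cell genes 9 had a region, with 11 resident and 10 monocyte-derived regions. Among these genes 4 had more resident and 4 more monocyte-derived regions (5 and 2 of 8 at equal list length). Ly6g, Kit and Mcpt4 were at 0 in both, and Padi4 had 3 resident and 0 monocyte-derived regions. Ccr3 had 1 and 0, Siglecf 2 and 4 and Csf3r 2 and 3. Of 18 mesothelial and stromal genes 6 had a region, with 6 and 6, and Msln, Wt1 and Col1a1 were at 0 in both. In that list Krt18 (1 and 0) alone had more resident and Pdgfrb (0 and 1) alone more monocyte-derived regions. At equal list length the numbers of such genes were 4 and 0 of 5. B cell, T and NK cell and dendritic cell genes had 1, 0 and 1 with more resident and 6, 4 and 11 with more monocyte-derived regions. The part of other cells in the gene counts was not tested.

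Promoters could be read with strand for 17274 genes that have a RefSeq window of 300 bases around a start, and a gene was called in a list if any of its windows overlapped a peak. Both lists called 5832 genes (33.8%), the resident list only 309 (1.79%), the monocyte-derived list only 1508 (8.73%) and neither 9625 (55.7%). At equal list length the shares of genes were 30.6%, 4.94%, 6.14% and 58.3%, so that the difference between the private classes nearly went. Housekeeping promoters were called in both lists in 14 of 14 genes and cell cycle promoters in 17 of 19. Monocyte and small peritoneal macrophage genes had 8 of 21 promoters called in the monocyte-derived list only, among them Itgax, Lyz2, Mgl2, S100a4 and S100a6, and 0 in the resident list only. Macrophage core genes had 5 of 14, including Cd68, a lysosomal membrane protein gene, and Mertk, a receptor for dying cells.

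Large peritoneal macrophage genes had 4 of 16 promoters called in both lists, 12 in neither and 0 in the resident list only, beside 1.79% of all genes in the resident list only. The listed genes with a resident-only promoter were Arhgef3, Vav3, another exchange factor gene, Cr2, which encodes a complement receptor of B cells, and Il7r, the interleukin 7 receptor gene. Alternative activation genes had 7 of 18 promoters called in both lists and 0 in either list alone.

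Short sequence motifs were searched on both strands of the different promoter windows, 6487 called in both lists, 366 in the resident list only, 1822 in the monocyte-derived list only and 12345 in neither. The motifs were PU.1 (GAGGAAGT), ETS (CCGGAAG), AP-1 (TGANTCA), CRE (TGACGTCA), NRF1 (GCATGCGC), GC box (GGGCGG), E-box (CACGTG), C/EBP (TTGCNNAA), IRF (GAAA and GAAA with any 2 bases between), the GATA factor motif (AGATAAG), STAT6 (TTC and GAA with any 4 bases between), the CCAAT box (of those letters), the retinoic acid receptor half-site (AGGTCA) and the MAF half-site (TGCTGAC). The PU.1 and ETS motifs share the letters GGAAG, and the 2 half-sites can overlap on opposite strands, as at Retnla. The motifs were chosen, and that of NRF1 shortened from a longer form, after the lists had been examined. A match describes the letters in a window and is not a bound site. The ETS motif was in 11.7% of all windows, in 22.9% of those called in both lists, 21.7% (19.8 to 23.6%) of monocyte-derived-only and 9.84% (7.19 to 13.3%) of resident-only windows. With all peaks, it had the largest gap between the private classes of the 14 motifs in which the intervals did not meet. At equal list length the shares were 21.9% of 1273 monocyte-derived-only and 17.0% of 993 resident-only windows. Only the monocyte-derived list is cut there. Windows called in both lists, where ETS was more frequent, can thus move to the resident-only class. The part of list length in the gap was not tested. The PU.1 motif was in 3.15% of all windows and in 4.37% (2.71 to 6.98%) and 3.68% (2.91 to 4.64%) of resident-only and monocyte-derived-only windows, a difference within counting error.

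**Figure D5:**
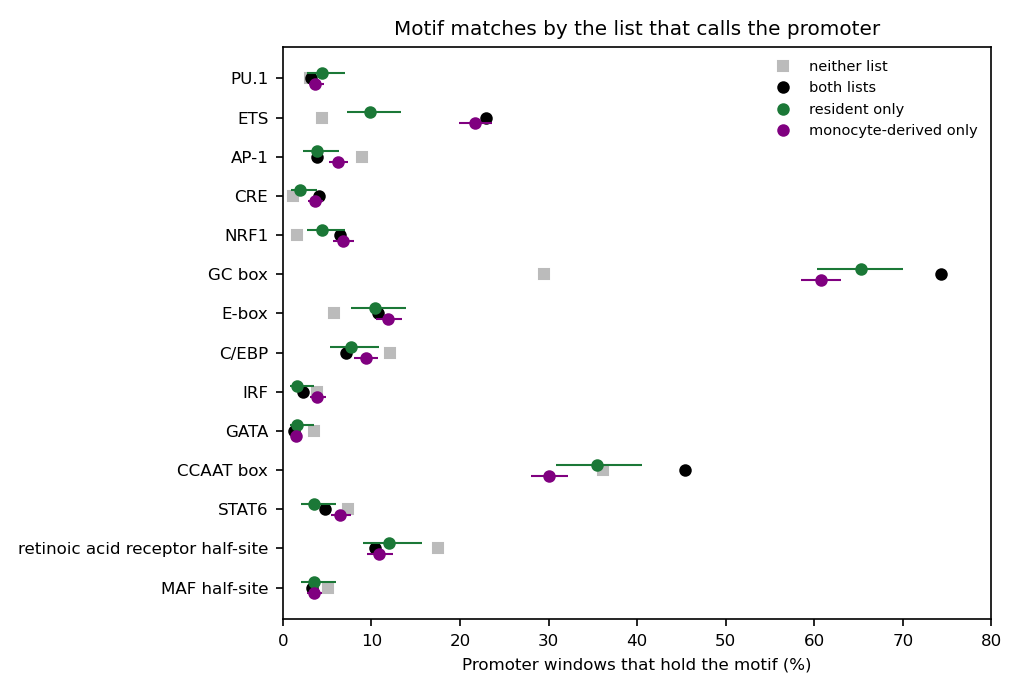
Percentage of promoter windows that hold each of 14 motifs, by the list that calls the window: both (black), resident only (green), monocyte-derived only (purple) or neither (grey squares). Lines are 95% Wilson intervals over windows for the private classes. The ETS motif is at 9.84% in resident-only and 21.7% in monocyte-derived-only windows with all peaks (17.0% and 21.9% at equal list length, not drawn).

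The GC box differed more between windows called in both lists and uncalled ones than between the private classes. It was in 74.3% of windows called in both, 65.3% (60.3 to 70.0%) of resident-only, 60.8% (58.5 to 63.0%) of monocyte-derived-only and 29.5% of uncalled windows. Base composition moved with this, with a median of 24 CpG dinucleotides in windows called in both lists, 20 and 21 in resident-only and monocyte-derived-only windows and 5 in uncalled windows. Its part in the motif shares was not tested. AP-1 was in 6.20% (5.18 to 7.40%) of monocyte-derived-only and 3.83% (2.29 to 6.32%) of resident-only windows, with 8.92% in uncalled ones. STAT6 was in 6.48% and 3.55%, IRF in 3.84% and 1.64% and the retinoic acid receptor half-site in 10.9% and 12.0%, with intervals that meet. Lists of equal length gave STAT6 in 7.23% of 1273 monocyte-derived-only and 4.33% of 993 resident-only windows. In the same order IRF was then in 3.69% and 1.91% and the GC box in 60.0% and 67.6%, a wider gap than that of ETS. These shares at equal length are given without intervals, so whether the classes differ there was not tested.

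MicroRNA genes followed the gene counts. Of 1005 RefSeq hairpins 258 had a region within 5 kb, of which 29 (11.2%) had more resident and 138 (53.5%) more monocyte-derived regions. MicroRNAs with known roles in myeloid cells were picked for display. Mature sequences are given with the seed, bases 2 to 8, in capitals, because miR-146a and miR-146b share a seed but lie at loci that were called in different lists.
miR-146a-5p: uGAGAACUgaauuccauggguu
miR-146b-5p: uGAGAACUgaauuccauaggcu
miR-29b-3p: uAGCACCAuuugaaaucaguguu
miR-29c-3p: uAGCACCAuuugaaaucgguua
miR-21a-5p: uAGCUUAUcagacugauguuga
miR-223-3p: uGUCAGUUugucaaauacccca

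The miR-146 family, whose seed GAGAACU is known to target adaptors of Toll-like receptor signalling, was split. Mir146, on chromosome 11, had 1 resident region and 0 monocyte-derived regions within 5 kb, and Mir146b, on chromosome 19, had 0 and 3. The miR-29 family shares the seed AGCACCA, and its hairpins Mir29b-2 and Mir29c on chromosome 1 each had 0 resident and 2 monocyte-derived regions over overlapping windows, while Mir29b-1 on chromosome 6 had 0 and 1. Mir21a, of a microRNA that is abundant in macrophages, had 1 and 3. Mir223, of a myeloid microRNA, had 1 and 1, in a region of both lists. Such counts are small, and each rests on 1 list per group.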

How the data were processed

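Nuclei of sorted cells were treated with Tn5 and sequenced on a HiSeq instrument, per the labels' protocols. Per the submitters' processing notes, alignment used Bowtie2 2.2.9 and the build mm10 (GRCm38). No source used here states the peak caller, the shift for Tn5, the treatment of duplicates or the merging of replicates, any of which can change a list. The authors deposited 1 list per group with a p-value for each peak, with edges on a grid of 25 bp, and 12.9% of resident and 18.5% of monocyte-derived peaks are at the floor of 1e-12. P-values were used only to rank and filter within a list. Neighbouring peaks of 1 list overlapped in 9.75% of resident and 5.42% of monocyte-derived peaks.

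Peaks on chromosomes 1 to 19 and X were compared in Python 3.11.15 with numpy 2.4.6, pandas 2.3.3 and matplotlib 3.10.9, by code tested on simulated lists. Gene positions came from RefSeq for GRCm38.p6, which gave no strand, so that a gene end is either end. Of 558 different listed genes 556 were found. Alternatives were equal list length, p-value limits, other overlap and merging rules, distances and gene windows, and, added after seeing the data, removal of dense windows. Members and lists were chosen with earlier results of these data known. Named genes follow a rule: 13 fixed genes, the 2 members of each list and the 5 genes overall with the largest difference in each direction, and the genes nearest to the 10 private peaks of smallest p-value in each list, of which the widest were taken where p-values tied. Other list members and loci were named after their values were seen.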

Additional observations from a re-analysis of the deposited data

How the results depend on the processing

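No paired analysis was possible because the samples of a group, though numbered in their titles, were deposited as 1 merged list without separate peaks for each sample. For that reason no replicate could be left out. The unknown depth bears on every site that a list lacks. With the longer list cut to the length of the shorter, 66.1% of resident and 55.3% of monocyte-derived peaks were shared, 31.7% of resident-only peaks lay near a gene end, and 3443 genes had more resident and 4965 more monocyte-derived regions. With p at most 1e-5, 76.7% and 39.7% were shared and 29.5% of monocyte-derived-only peaks lay near a gene end. With p at most 1e-10, 86.8% and 43.8% were shared, 44.4% of resident-only and 53.0% of monocyte-derived-only peaks lay near a gene end, and 337 and 3502 genes had more resident and more monocyte-derived regions. Requiring that 50% of the shorter peak be covered gave 76.6% and 47.6% shared and 26.9% of resident-only peaks near a gene end, and counting peaks within 200 bp as shared gave 82.4% and 55.6%. Gene ends taken at 0.5 kb gave 19.7% and 20.5% of private peaks, and at 5 kb 38.3% and 40.5%. With 50 kb on each side 11443 genes had more monocyte-derived regions. The monocyte-derived list stayed the one shared less, and more genes had monocyte-derived than resident excess, in each of these settings. The cause of each shift was not tested.

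The sign of the resident minus monocyte-derived count turned in 6 of 216 settings of a gene list and 28 of 1232 settings of a gene. Differences that changed in size without turning are not in these numbers. At equal list length Cdk6 had 5 and 5, H2-DMa 3 and 4 and Irak2 2 and 3, while at Gse1 the difference widened to 18 and 6. Regions were merged anew at equal list length, so resident counts could rise where dropped monocyte-derived peaks had joined resident ones. At Cebpb the resident count went from 2 to 4. At equal list length the differences were 8 for large peritoneal macrophage, 1 for TGFβ and BMP and 1 for cell cycle genes, and 1 for Cebpb, E230025N22Rik and Mrc1, 2 for Soat1 and 3 for Vav3. In the gene body alone they were 4 for large peritoneal macrophage genes and -1 for Ccl28. At p at most 1e-5 they were -2 for Dock2 and Ltbp1 and -1 for Pf4 and Retnla. At p at most 1e-10 they were -1 for the granulocyte and mast cell list and for Cebpa, Dock2, Garnl3, Gse1, Hadh, Ltbp1 and Sfi1, -2 for Acadm and 1 for Adck1. With 50 kb on each side they were -16 for granulocyte and mast cell genes, -4 for Cebpa, -1 for Csf1, and -2 for Icam2 and Stat6. By nearest gene they were -2 for Cebpa and Jun, -1 for Csf1 and -3 for Gata6, and without dense windows -2 for Sfi1.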
